A study of Mus musculus with 13 samples.

Results

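Macrophage marker genes were measured in aortic endothelial cells (ECs) and heart tissue of mice with deletion of *Hmox2*, the gene of the constitutive heme oxygenase. The set held 10 genes chosen by name, *Lyz2*, *Cd68*, *Adgre1*, *Csf1r*, *C1qa*, *C1qb*, *C1qc*, *Mrc1*, *Cd163* and *Ctss*, out of 36109 genes with listed transcripts. All 10 were found and passed the filter on low counts in every comparison. RNA-sequencing libraries came from 4 groups, each in room air. For ECs there were 3 libraries from wild-type aortas, genotype *Hmox2+/+* (named EC WT with a number), and 3 from knockout aortas, genotype *Hmox2-/-* (EC KO). For whole hearts there were 4 *Hmox2+/+* libraries (heart WT) and 3 *Hmox2-/-* libraries (heart KO). The study's methods call the *Hmox2+/+* mice wild-type littermates, and the study describes the sequenced mice as young. Neither the methods nor the labels give their exact age or their sex. EC RNA was the lysate flushed from the lumen of the aorta after blood had been rinsed from the vessels, with no sorting step described. The labels number the samples of a group without naming the mouse and do not tie an EC library to a heart library. Libraries were therefore treated as independent, and p-values measure only the spread between these samples.

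Macrophages live in most tissues, the heart and the arterial wall among them, where they clear dying cells and debris. They depend on signals through the receptor encoded by *Csf1r*. Macrophages that reside in tissue for long periods are known for scavenger and endocytic receptors such as *Mrc1*, *Cd163* and *Lyve1*, whereas monocytes that enter inflamed tissue are known for *Ccr2* and *Ly6c2* and for cytokines such as *Il1b* and *Tnf*. The genes *C1qa*, *C1qb* and *C1qc* encode the chains of C1q, the recognition subunit of the classical complement pathway, and macrophages are a main source of it in tissue. In bulk RNA, fewer cells of a type and less RNA per cell cannot be told apart.

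The C1q genes lie side by side on the minus strand of chromosome 4 of GRCm39, *C1qb* from 136606009 to 136613511, *C1qc* from 136616466 to 136620376 and *C1qa* from 136623223 to 136626161. Promoter sequences from RefSeq (GRCm38.p6) matched 7 of the 10 genes, and *C1qa*, *Adgre1* and *Csf1r* had no entry. The 250 bases before the start are shown for *Lyz2*, *C1qb* and *C1qc*, which passed the test in hearts, and for the resident-type markers *Mrc1* and *Cd163*. They lie at chr10:117282273-117282522 (minus strand), chr4:136886201-136886450 (minus), chr4:136892915-136893164 (minus), chr2:14229164-14229413 (plus) and chr6:124304401-124304650 (plus), and are written 5′ to 3′ on the strand of the gene. Capitals mark AGGAAGT or its reverse complement ACTTCCT, which holds the core that ETS factors such as PU.1, a regulator of myeloid genes, are known to bind. *Cd163* has neither in its window and is printed without capitals. *Cd68* also passed the test in hearts, and its window, which is not shown, has neither as well.
Lyz2: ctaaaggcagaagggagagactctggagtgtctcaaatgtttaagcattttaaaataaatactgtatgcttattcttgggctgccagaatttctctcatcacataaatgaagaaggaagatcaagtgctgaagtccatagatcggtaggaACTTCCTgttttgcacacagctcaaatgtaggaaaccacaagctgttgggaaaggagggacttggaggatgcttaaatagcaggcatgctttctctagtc
C1qb: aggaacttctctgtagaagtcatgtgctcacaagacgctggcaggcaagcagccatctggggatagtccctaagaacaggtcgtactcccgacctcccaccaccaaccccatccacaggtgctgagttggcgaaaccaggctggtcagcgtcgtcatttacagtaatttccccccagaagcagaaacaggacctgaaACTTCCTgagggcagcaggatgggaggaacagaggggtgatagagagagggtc
C1qc: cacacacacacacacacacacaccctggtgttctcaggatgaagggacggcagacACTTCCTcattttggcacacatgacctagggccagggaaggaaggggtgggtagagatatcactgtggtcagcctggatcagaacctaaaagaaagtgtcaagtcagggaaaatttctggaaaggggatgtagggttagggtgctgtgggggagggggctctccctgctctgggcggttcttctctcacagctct
Mrc1: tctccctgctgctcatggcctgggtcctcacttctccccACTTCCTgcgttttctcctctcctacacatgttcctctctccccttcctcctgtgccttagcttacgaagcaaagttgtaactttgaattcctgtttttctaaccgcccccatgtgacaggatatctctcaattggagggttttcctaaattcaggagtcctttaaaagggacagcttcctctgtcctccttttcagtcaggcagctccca
Cd163: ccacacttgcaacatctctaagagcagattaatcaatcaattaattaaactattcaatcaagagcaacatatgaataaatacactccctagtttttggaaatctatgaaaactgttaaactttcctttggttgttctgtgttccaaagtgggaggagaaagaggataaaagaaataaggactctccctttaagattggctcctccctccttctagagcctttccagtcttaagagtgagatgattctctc
The word AGGAAGT, searched on both strands, was in 4 of the 7 windows (*Lyz2*, *C1qb*, *C1qc* and *Mrc1*) and in 7.69% of 32851 promoter windows of the same length. The shorter word GAGGAA, which can overlap it, was in 5 of the 7 (*C1qb*, *C1qc*, *Cd68*, *Ctss* and *Mrc1*) and in 23.3% of all windows. Both words were chosen after these sequences were seen, and a match is a description of letters, not a binding site.

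Total estimated counts were 26067147 to 31619776 in 12 libraries and 7268626 in heart WT 1, in which *Cd68* had 21 counts and *Cd163* 29 counts. *Hmox2* was 64.1 to 75.5 CPM (counts scaled to library size) in ECs of *Hmox2+/+* mice and 12.6 to 14.7 CPM in ECs of *Hmox2-/-* mice, and 37.2 to 42.4 and 7.57 to 8.97 CPM in the hearts. All 10 endothelial markers were detected in the EC libraries, at a summed 863 to 1671 TPM (a level per transcript length) in *Hmox2+/+* and 1817 to 2035 TPM in *Hmox2-/-* libraries. The same libraries held adipocyte markers at a summed 12140.4 to 17729.9 and 10609.9 to 13220.5 TPM and smooth muscle markers at 1995 to 3182 and 604 to 2272 TPM. The Y-linked gene *Ddx3y* was 1.04 CPM in EC KO 2, 0.916 CPM in EC KO 3 and 61.2 to 86.4 CPM in the other 4 EC libraries, and 37.2 to 51.2 CPM in *Hmox2-/-* against 61.4 to 86.3 CPM in *Hmox2+/+* hearts. The low EC values fell in *Hmox2-/-* libraries alone, so a difference of sex cannot be told apart from genotype between the EC groups. The part of sex in the EC differences was not tested. The share of counts from mitochondrially encoded genes was 22.6% to 27.2% in *Hmox2-/-* hearts, against 37.6% to 44.3% in their *Hmox2+/+* counterparts.

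In aortic ECs all 10 macrophage markers were higher in each *Hmox2-/-* library than in every *Hmox2+/+* library, and 5 of them (*Lyz2*, *Cd68*, *Adgre1*, *Mrc1* and *Cd163*) passed the test, all upward. Calls came from edgeR's quasi-likelihood test, with p-values adjusted for every gene in the fit and a threshold of 0.05, and log2 fold changes are given ± the SE of that fit. By that rule 10% of the 15301 genes tested were higher and 8.06% lower in *Hmox2-/-* ECs, and 22.2% had *Hmox2-/-* libraries that all lay above the *Hmox2+/+* ones. The median log2 fold change, *Hmox2-/-* over *Hmox2+/+*, was 0.67 over the 10 markers and -0.017 over all genes tested. *Lyz2* and *Cd163* also met the study's criterion for a differentially expressed gene (DEG), a change of 1 or more on the log2 scale in addition, as did 5.39% of genes in the same direction.

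*Lyz2* (chromosome 10, 117111557 to 117118346, minus strand), the lysozyme of phagocytes, was 725, 413 and 504 CPM in EC KO 1 to EC KO 3 and 200.5, 289.9 and 277 CPM in EC WT 1 to EC WT 3. The lowest *Hmox2-/-* library stood well above the highest *Hmox2+/+* library, and EC KO 1 was the highest of the 6. The log2 fold change was 1.09 ± 0.25 (adjusted p = 0.0254). Of the 31-base words of *Lyz2*, 15.2% also occur in other genes, its neighbour *Lyz1* among them, and with the counts of both genes summed the log2 fold change was 1.05 (adjusted p = 0.0284). *Cd68* (chromosome 11, 69555037 to 69557067, minus strand), a lysosomal glycoprotein of phagocytes, was 20.1, 16.6 and 18.4 CPM in the *Hmox2-/-* and 9.07, 11.5 and 14.2 CPM in the *Hmox2+/+* libraries. The gap between EC KO 2 and EC WT 3 was narrow beside the spread within the *Hmox2+/+* group. Its log2 fold change was 0.66 ± 0.18 (adjusted p = 0.0437).

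*Adgre1* (chromosome 17, 57665573 to 57790527, plus strand) encodes the F4/80 antigen of mouse macrophages. It was 27.1, 24.7 and 23.5 CPM in EC KO 1 to EC KO 3 against 13.2, 13.4 and 16.7 CPM in EC WT 1 to EC WT 3. The gap between the groups was wider than the spread within either, with a log2 fold change of 0.79 ± 0.13 (adjusted p = 0.011). *Csf1r* (chromosome 18, 61229714 to 61266535, plus strand), the receptor for colony stimulating factor 1, was 87.9, 58.2 and 73.1 CPM in *Hmox2-/-* ECs and 51.1, 52.3 and 56.7 CPM in *Hmox2+/+* ECs. EC KO 2 lay just above EC WT 3, and the log2 fold change of 0.45 ± 0.16 (adjusted p = 0.0872) did not pass the test. Of the 31-base words of *Csf1r* 21.1% recur elsewhere, in *Hmgxb3* among others, so part of its count is uncertain.

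The C1q genes came next. *C1qa* was 118, 90.9 and 79.1 CPM in EC KO 1 to EC KO 3 and 55.6, 58.8 and 74.3 CPM in EC WT 1 to EC WT 3. *C1qb* was 132, 92.3 and 94.3 CPM and 49.3, 63.6 and 81.7 CPM in the same libraries. *C1qc* was 113, 81.9 and 77.1 CPM and 52.7, 59.2 and 74.8 CPM. In each case EC KO 1 was highest, EC WT 1 was lowest and EC WT 3 came near the lower *Hmox2-/-* libraries. None of the 3 passed the test, with log2 fold changes of 0.61 ± 0.18 (adjusted p = 0.0547) for *C1qa*, 0.71 ± 0.22 (adjusted p = 0.059) for *C1qb* and 0.54 ± 0.19 (adjusted p = 0.0857) for *C1qc*. *Ctss* (chromosome 3, 95433963 to 95463717, plus strand), the cathepsin that trims the invariant chain of MHC class II, was 47.5, 32.96 and 38.2 CPM in *Hmox2-/-* and 19.9, 24.1 and 31.7 CPM in *Hmox2+/+* ECs. EC KO 2 and EC WT 3 nearly touched, and the log2 fold change was 0.64 ± 0.20 (adjusted p = 0.0642). DESeq2 in place of edgeR called these 4 genes too, 9 of the 10 in all.

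Of the resident-type markers, *Mrc1* (chromosome 2, 14234151 to 14336926, plus strand), the mannose receptor, was 60.7, 49.03 and 46.02 CPM in EC KO 1 to EC KO 3 and 36.2, 24.6 and 35.6 CPM in EC WT 1 to EC WT 3. Every *Hmox2-/-* library was above the *Hmox2+/+* libraries, among which EC WT 2 was the low one. Its log2 fold change was 0.69 ± 0.18 (adjusted p = 0.0411), and with an offset for gene length and GC content it was not called, at 0.41 (adjusted p = 0.181). *Cd163* (chromosome 6, 124281606 to 124307560, plus strand), the scavenger receptor for complexes of hemoglobin and haptoglobin, was 47.7, 28.9 and 38.4 CPM in *Hmox2-/-* and 12.9, 13.8 and 15.5 CPM in *Hmox2+/+* ECs. The *Hmox2+/+* values were close together and the lowest *Hmox2-/-* value stood far above the highest of them. With a log2 fold change of 1.44 ± 0.19 (adjusted p = 0.00511), *Cd163* had the largest genotype difference of the 10 genes in ECs.

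Leaving out 1 library changed the number of markers called in ECs from 5 to 2 (without EC WT 1, EC KO 1 or EC KO 3), 3 (without EC WT 2 or EC KO 2) or 9 (without EC WT 3). *Cd163* and *Adgre1* were called in all 6 of these fits. *Lyz2* was not called without EC WT 1, EC KO 1 or EC KO 3, and *Cd68* and *Mrc1* were called in none of the 6 but the fit without EC WT 3. EC KO 1, the *Hmox2-/-* EC library with *Ddx3y* near the *Hmox2+/+* level, was above all 3 *Hmox2+/+* libraries for each of the 10 genes. Fitted alone against them it gave a *Cd163* log2 fold change of 1.76 (adjusted p = 0.0403), with the lone library assumed to vary like the others, and no other marker was called.

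**Figure D1:**
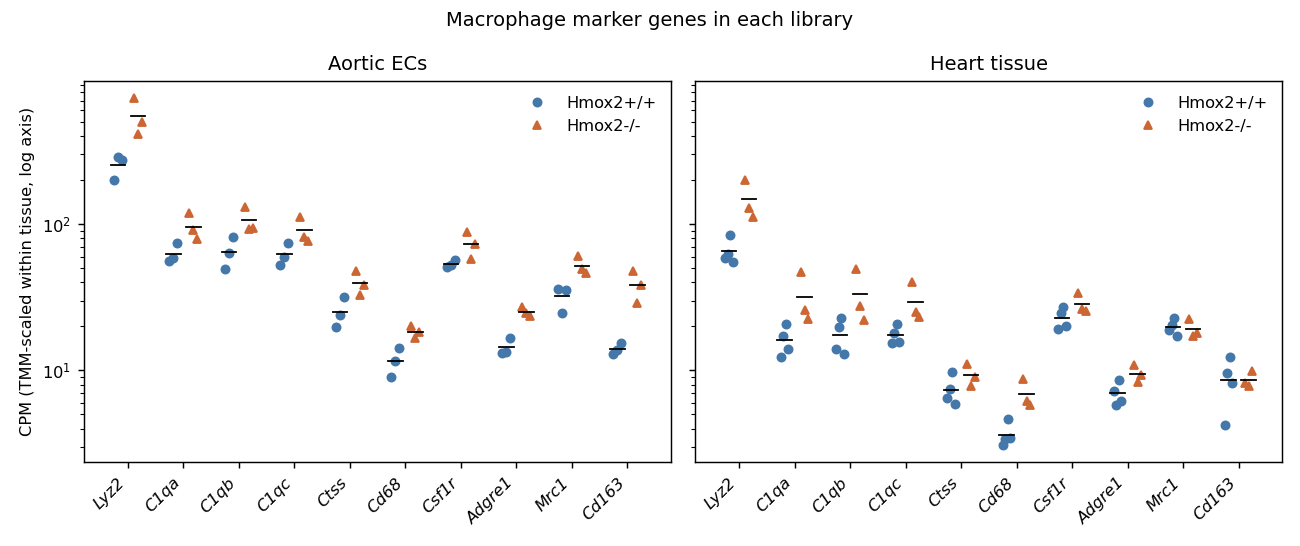
Level of the 10 macrophage markers in each library, in CPM scaled within a tissue (log axis), for aortic ECs (left) and heart tissue (right). Each point is 1 library and each bar the mean of its group. In ECs the *Hmox2-/-* points lie above the *Hmox2+/+* points for all 10 genes, and in hearts for *Lyz2*, *Cd68*, *C1qa* and *C1qc*.

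Markers of other cell types also differed between the EC groups. Cardiomyocyte markers were lower in *Hmox2-/-* ECs for 7 of 8 genes, with a summed 7.71 to 11.3 TPM against 87.2 to 592 TPM. Smooth muscle markers were called lower for 3 of 7 genes, and fibroblast markers higher for 3 of 8 at a summed 2761 to 3718 against 1302 to 2456 TPM. Of the endothelial markers 3 of 10 were higher and 1 was lower. Of all genes tested in ECs 10% were called higher and 8.06% lower. Of 7 adipocyte markers edgeR called 1, *Lep*, lower, and DESeq2 called 4 lower and 1 higher. T and NK cell markers summed to 144 TPM in EC WT 2 and to 16.6 and 44.4 TPM in EC WT 1 and EC WT 3, against 18.05 to 49.03 TPM in *Hmox2-/-* ECs, and edgeR called none of the 9 tested (1 at an unadjusted p under 0.05, 1 with DESeq2). The part of these cells in the macrophage marker values was not tested.

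In heart tissue 5 of the 10 markers passed the test, all upward: *Lyz2*, *Cd68*, *C1qa*, *C1qb* and *C1qc*. Among the 13816 genes tested in hearts 17.2% were called higher and 16.2% lower in *Hmox2-/-* mice. The *Hmox2-/-* libraries lay above every *Hmox2+/+* library for 4 markers (*Lyz2*, *Cd68*, *C1qa* and *C1qc*), a pattern of 21.6% of all genes tested. The median log2 fold change was 0.59 over the 10 markers and -0.0091 over all genes. Only *Lyz2* met the DEG criterion, as did 2.66% of genes in that direction.

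*Lyz2* was 201, 129 and 113 CPM in heart KO 1 to heart KO 3 and 58.3, 62.97, 84.8 and 54.9 CPM in heart WT 1 to heart WT 4. Heart KO 1 was far above the rest, and the other *Hmox2-/-* hearts were still above heart WT 3, the highest *Hmox2+/+* heart. The log2 fold change was 1.16 ± 0.20 (adjusted p = 0.00201), and it was called under all 17 alternatives, leaving out each library among them. *Cd68* was 8.76, 6.14 and 5.77 CPM in *Hmox2-/-* and 3.08, 3.38, 4.63 and 3.42 CPM in *Hmox2+/+* hearts. The groups did not overlap, and the log2 fold change was 0.89 ± 0.20 (adjusted p = 0.00694).

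*C1qa* was 46.7, 25.98 and 22.3 CPM in heart KO 1 to heart KO 3 and 12.3, 17.3, 20.7 and 13.9 CPM in heart WT 1 to heart WT 4. *C1qb* was 49.5, 27.5 and 22.2 and 14.1, 19.8, 22.9 and 12.9 CPM in the same libraries. *C1qc* was 40.4, 24.9 and 23.2 and 15.3, 17.9, 20.9 and 15.7 CPM. For all 3 genes heart KO 1 was far above the other hearts and heart KO 3 lay close to heart WT 3, just below it for *C1qb*. The log2 fold changes were 0.94 ± 0.24 (adjusted p = 0.0123) for *C1qa*, 0.89 ± 0.26 (adjusted p = 0.0232) for *C1qb* and 0.73 ± 0.19 (adjusted p = 0.0125) for *C1qc*. Without heart KO 1 they were 0.55 (adjusted p = 0.0295), 0.48 (adjusted p = 0.0894) and 0.44 (adjusted p = 0.0281), and *C1qb* was also not called without heart WT 1 (0.82, adjusted p = 0.0598) or heart WT 4 (0.76, adjusted p = 0.0641). With an offset for gene length and GC content none of the C1q genes was called, at 0.53 (adjusted p = 0.0501), 0.48 (adjusted p = 0.103) and 0.38 (adjusted p = 0.0628).

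The other 5 markers did not pass the test in hearts. *Adgre1* was 10.9, 8.27 and 9.32 CPM in *Hmox2-/-* and 7.20, 5.84, 8.62 and 6.17 CPM in *Hmox2+/+* hearts, with a log2 fold change of 0.44 ± 0.17 (adjusted p = 0.0613). *Csf1r* was 33.6, 26.3 and 25.5 against 19.2, 24.5, 27.04 and 19.97 CPM, at 0.30 ± 0.14 (adjusted p = 0.122). *Ctss* was 11.1, 7.88 and 8.96 against 6.46, 7.43, 9.69 and 5.93 CPM, at 0.31 ± 0.19 (adjusted p = 0.221). For these 3 heart WT 3 overlapped the *Hmox2-/-* hearts. With the offset for gene length and GC content *Adgre1* (0.54, adjusted p = 0.0264) and *Csf1r* (0.41, adjusted p = 0.0487) were called. *Adgre1* was also called without heart WT 3 (0.57, adjusted p = 0.0324). *Mrc1* and *Cd163* overlapped between the genotypes, unlike some genes of the wider resident list given below. *Mrc1* was 22.4, 17.1 and 18.2 CPM in *Hmox2-/-* hearts and 18.8, 20.3, 22.9 and 17.2 CPM in *Hmox2+/+* hearts, at -0.062 ± 0.13 (adjusted p = 0.744). *Cd163* was 8.14, 7.88 and 9.95 against 4.26, 9.57, 12.3 and 8.26 CPM, at -0.06 ± 0.24 (adjusted p = 0.87). Both signs turned with the offset for gene length and GC content, to 0.38 and 0.12. The *Hmox2-/-* hearts fell inside the *Hmox2+/+* range for *Cd163*, and for *Mrc1* all but heart KO 2, which lay just below it, did so too, and the shallow library heart WT 1 held the lowest *Cd163* value.

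**Figure D2:**
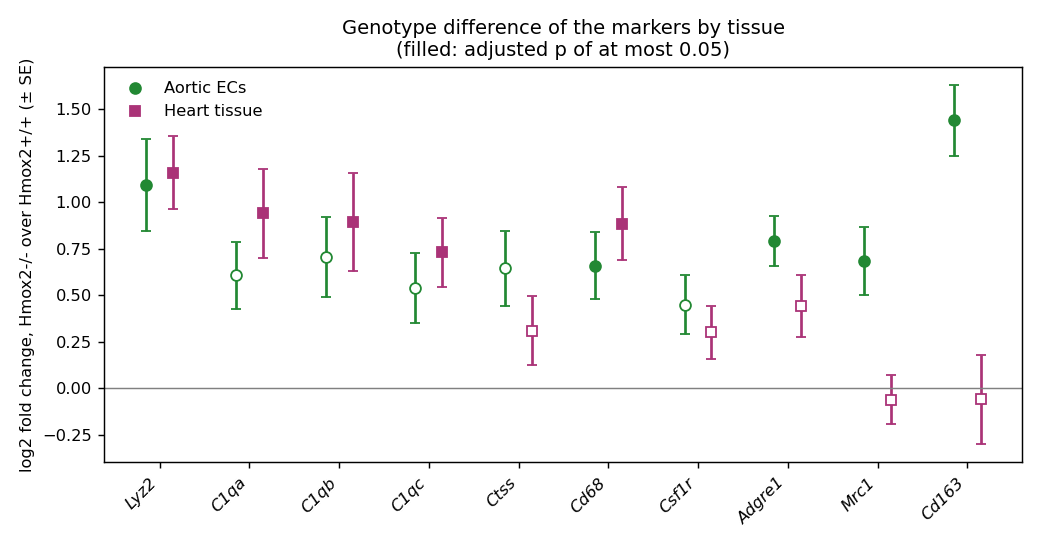
Log2 fold change, *Hmox2-/-* over *Hmox2+/+*, of each marker in aortic ECs (circles) and heart tissue (squares), with the SE of the edgeR fit as bars; filled symbols have an adjusted p of at most 0.05. *Lyz2* and *Cd68* are filled in both tissues, the C1q genes in hearts, and *Adgre1*, *Mrc1* and *Cd163* in ECs, where *Cd163* reaches 1.44 against -0.06 in hearts.

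Erythroid genes also differed in hearts. All 5 of the erythroid markers tested were higher there, at a summed 2416 to 3506 TPM against 341 to 779 TPM in *Hmox2+/+* hearts. *Hba-a1* was 288, 219.6 and 201 CPM in *Hmox2-/-* and 64.2, 83.4, 44.1 and 59.5 CPM in *Hmox2+/+* hearts, a log2 fold change of 1.90 ± 0.19 (adjusted p = 7.19e-05). In ECs the erythroid sums overlapped, at 3982 to 8919 and 4730.2 to 9633 TPM, and edgeR called none of 7 (1 at an unadjusted p under 0.05, 1 with DESeq2). In hearts 4 of 7 smooth muscle markers were higher and 1 lower, 3 of 10 endothelial markers were higher and 1 lower, 1 of 8 fibroblast markers was higher and 2 lower, 2 of 8 cardiomyocyte markers were higher and 1 lower, and *Cfd* was the 1 adipocyte marker of 5 called, upward. Of all genes tested in hearts 17.2% were called higher and 16.2% lower, and the fibroblast and cardiomyocyte counts were near those shares. The part of blood or of other cells in the heart values of the macrophage markers was not tested.

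The difference between the tissues was tested as a tissue by genotype term fitted over all 13 libraries. It was called for 2 of the 10 markers, both with a lower log2 fold change in hearts than in ECs. In that direction it was called for 12.6% of the 15938 genes tested, and in either direction for 4595 genes. For *Cd163* the log2 fold change in hearts minus that in ECs was -1.45 ± 0.35 (adjusted p = 0.00842). For *Mrc1* it was -0.71 ± 0.23 (adjusted p = 0.0332). The other 8 markers had adjusted p-values of 0.318 to 0.847 in this test, with differences from -0.31 for *Adgre1* to 0.38 for *C1qa* and standard errors of 0.22 to 0.39. With the offset for gene length and GC content the differences of *Cd68* and the C1q genes turned from positive to negative. The *Cd163* term was called under all 22 alternatives, at -1.63 to -1.22. The *Mrc1* term was -0.0099 (adjusted p = 0.992) with the offset for gene length and GC content. It was also not called without EC WT 2 (-0.54, adjusted p = 0.0713), EC KO 1 (-0.57, adjusted p = 0.0778), heart WT 2 (-0.69, adjusted p = 0.0577), heart WT 3 (-0.62, adjusted p = 0.071), heart KO 2 (-0.62, adjusted p = 0.0912) or heart KO 3 (-0.66, adjusted p = 0.0622).

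Levels were compared between genes in TPM. *Lyz2* was the highest of the 10 in every group, at 244 ± 76.5 TPM (SD, n = 3) in *Hmox2+/+* ECs, 510.2 ± 189 (n = 3) in *Hmox2-/-* ECs, 52.3 ± 8.81 (n = 4) in *Hmox2+/+* hearts and 145 ± 37.8 (n = 3) in *Hmox2-/-* hearts. The C1q genes came next, with overlapping ranges in each group, *C1qa* at 78.7 ± 22.2 TPM in *Hmox2+/+* ECs and 17.1 ± 3.78 TPM in *Hmox2+/+* hearts. *Ctss*, *Csf1r* and *Cd68* followed in ECs, at 23.3 ± 8.36, 15.7 ± 4.01 and 12.3 ± 4.39 TPM in *Hmox2+/+* libraries. In *Hmox2+/+* hearts *Csf1r* (5.79 ± 1.08 TPM) and *Ctss* (5.73 ± 1.14 TPM) did not differ beyond their spread. *Mrc1*, *Cd163* and *Adgre1* were lowest in ECs. In *Hmox2+/+* ECs *Cd163* was last, at 3.99 ± 0.964 TPM after *Adgre1* at 5.48 ± 1.55 TPM, and in *Hmox2-/-* ECs *Mrc1*, *Cd163* and *Adgre1* had overlapping ranges around 10.99 ± 2.72, 10.8 ± 3.51 and 9.70 ± 1.68 TPM. The 10 genes together summed to 353, 580.4 and 667 TPM in EC WT 1 to EC WT 3, 1278, 677 and 892.6 TPM in EC KO 1 to EC KO 3, 109, 143, 146 and 102 TPM in heart WT 1 to heart WT 4 and 387, 251 and 244 TPM in heart KO 1 to heart KO 3. The ratio of group means was 1.78 in ECs and 2.35 in hearts, or 1.82 and 1.75 on normalized CPM.

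Proportions of markers were taken within each library. The ratio of *Cd163* to *Mrc1* (TPM) was 0.473, 0.739 and 0.583 in EC WT 1 to EC WT 3 and 1.003, 0.804 and 1.12 in EC KO 1 to EC KO 3. All *Hmox2-/-* ECs were above the *Hmox2+/+* ECs. In hearts the ratio was 0.289, 0.619, 0.715 and 0.654 in *Hmox2+/+* and 0.498, 0.609 and 0.737 in *Hmox2-/-* libraries, which overlapped. The ratio of *Mrc1* to *Adgre1* was 1.62, 2.12, 1.67 and 1.64 in heart WT 1 to heart WT 4 and 1.20, 1.23 and 1.15 in heart KO 1 to heart KO 3. The *Hmox2-/-* hearts were lower without overlap, while in ECs the ratio overlapped at 0.982 to 1.63 and 1.04 to 1.21. *Lyz2* took 39.6 to 43.8% of the summed TPM of the 10 genes in *Hmox2+/+* hearts against 48.7 to 50.2% with the deletion, again without overlap, and 42.9 to 49.99% and 49.3 to 55.5% in ECs, where the ranges overlapped. For the C1q chains the ratio varied less, *C1qb* at 0.839 to 1.13 times *C1qa* and *C1qc* at 0.726 to 1.04 times *C1qa* over the 13 libraries. These ratios were compared without a test.

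**Figure D3:**
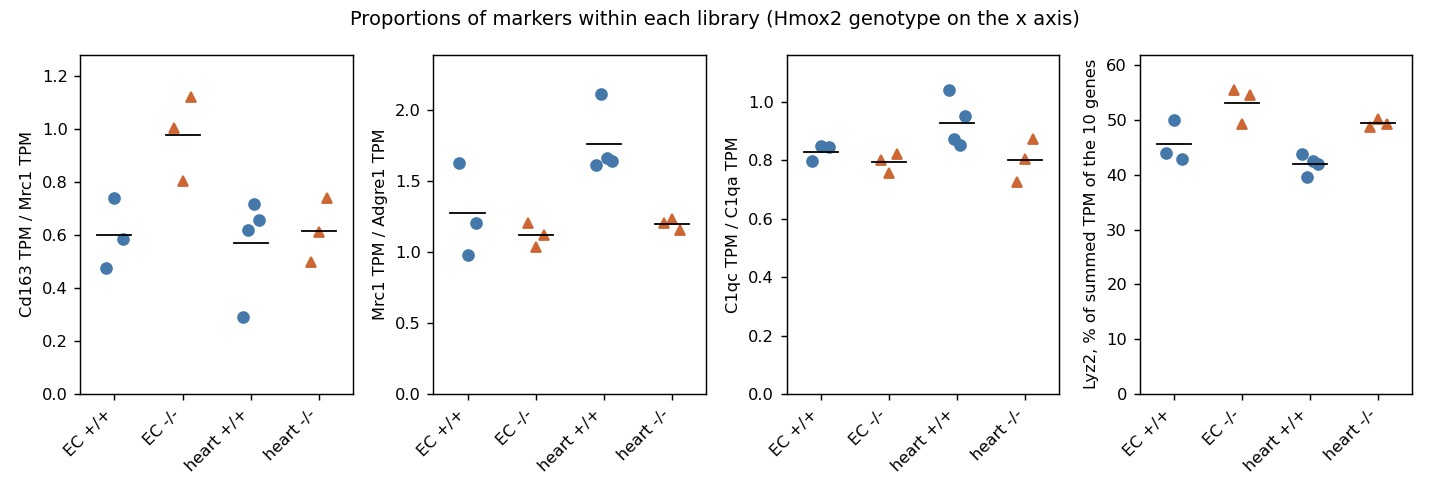
Proportions of markers within each library by group, from TPM: *Cd163* over *Mrc1*, *Mrc1* over *Adgre1*, *C1qc* over *C1qa*, and the share of *Lyz2* in the summed TPM of the 10 genes. Points are libraries and bars group means. The 3 *Hmox2-/-* EC libraries are highest in the first panel, and the 3 *Hmox2-/-* hearts are below all *Hmox2+/+* hearts in the second.

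Without the deletion, 7 of the 10 markers were lower in hearts than in ECs, as were 33.7% of the 15938 genes tested, and 5 of them met the DEG criterion (22% of genes). The log2 difference, *Hmox2+/+* hearts over *Hmox2+/+* ECs, was -1.22 ± 0.23 (adjusted p = 0.000334) for *Lyz2*, -1.20 ± 0.24 (adjusted p = 0.00045) for *C1qa*, -1.13 ± 0.27 (adjusted p = 0.00192) for *C1qb*, -1.07 ± 0.20 (adjusted p = 0.000266) for *C1qc* and -1.01 ± 0.20 (adjusted p = 0.000494) for *Ctss*. For *Cd68* it was -0.90 ± 0.20 (adjusted p = 0.000955) and for *Csf1r* -0.47 ± 0.15 (adjusted p = 0.0144). *Mrc1* (0.058 ± 0.16, adjusted p = 0.763), *Cd163* (0.091 ± 0.24, adjusted p = 0.759) and *Adgre1* (-0.31 ± 0.16, adjusted p = 0.0962) did not pass this test. The scale mattered here. In TPM the *Hmox2+/+* hearts lay wholly below the *Hmox2+/+* ECs for *Mrc1* (2.92 to 4.14 against 5.62 to 8.34 TPM), *Cd163* (1.03 to 2.80 against 2.95 to 4.86 TPM) and *Adgre1* (1.78 to 2.35 against 3.82 to 6.90 TPM). On the count scale the signs of *Mrc1* and *Cd163* turned with upper-quartile normalization, which moved the median of all genes by -0.14 on the log2 scale. Most of the resident macrophage list described below did differ by this test. Of its 15 genes 12 were called lower in hearts and none higher, at a median of -1.59, against 33.7% of all genes called lower.

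A list of resident macrophage genes and a list of inflammatory monocyte and macrophage genes were set side by side. The resident list held 15 genes, *Mrc1* and *Cd163* among them, all tested in both tissues. In ECs, where 10% of all genes were called higher, 7 were higher and none was lower, with a median log2 fold change of 0.61. Besides *Cd163* and *Mrc1* they were the complement receptor gene *Vsig4* (2.20 ± 0.49, adjusted p = 0.0249), the hyaluronan receptor gene *Lyve1* (1.29 ± 0.19, adjusted p = 0.00749), *F13a1* for coagulation factor XIII subunit A (0.81 ± 0.19, adjusted p = 0.0274), the scavenger receptor gene *Stab1* (0.79 ± 0.22, adjusted p = 0.0433) and the lectin gene *Cd209f* (0.61 ± 0.15, adjusted p = 0.033). *Lyve1* was 68.3, 47.99 and 68.7 CPM in EC KO 1 to EC KO 3 and 20.01, 27.2 and 28.5 CPM in EC WT 1 to EC WT 3, with no overlap. *Lyve1* and *Stab1* are also known from lymphatic and some vascular endothelium, so they do not mark macrophages alone. Without 1 library the count was 2 to 7. It was 2 without EC WT 1, EC WT 2 or EC KO 1, and 3 without EC KO 2 or EC KO 3.

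In hearts, where 17.2% of all genes were called higher, 7 genes of the resident list were higher and none lower. The median was 0.29. The largest changes were *Vsig4* (3.82 ± 0.43, adjusted p = 0.000152), the leukotriene C4 synthase gene *Ltc4s* (1.06 ± 0.31, adjusted p = 0.0226), the folate receptor gene *Folr2* (1.01 ± 0.21, adjusted p = 0.00558) and *Lyve1* (0.91 ± 0.18, adjusted p = 0.00415), and the others were *Cbr2*, *F13a1* and *Gas6* at 0.62, 0.46 and 0.29. *Vsig4* was low in hearts, at 2.52, 2.13 and 1.23 CPM in *Hmox2-/-* hearts against 0.147, 0.0691, 0.190 and 0.141 CPM in *Hmox2+/+* hearts, where it rested on 1 to 5 counts a library, so its fitted fold change is imprecise. *Folr2* was 11.9, 8.09 and 6.40 against 3.38, 3.87, 4.86 and 4.83 CPM, without overlap. In ECs *Folr2* gave 0.75 ± 0.25 (adjusted p = 0.071). *Timd4*, a receptor for phosphatidylserine and a marker of long-lived resident macrophages, was not called, at -0.16 ± 0.25 (adjusted p = 0.669) in ECs and 0.076 ± 0.41 (adjusted p = 0.905) in hearts, where it stayed at 0.294 to 1.67 and 0.730 to 1.24 CPM. The heart count was 3 without heart WT 2 or heart WT 4 and 4 without heart WT 1 or heart KO 2.

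Of the 20 genes of the inflammatory list, 13 could be tested in ECs and 9 in hearts. In ECs 3 were higher: the chemokine gene *Ccl2* (1.81 ± 0.47, adjusted p = 0.0366), the osteopontin gene *Spp1* (1.73 ± 0.40, adjusted p = 0.0278) and the chemokine receptor gene *Ccr2* (0.998 ± 0.24, adjusted p = 0.0311). The median was 0.60, and of all genes tested in ECs 10% were called higher. *Ccr2* was 7.58, 7.96 and 11.5 CPM in EC KO 1 to EC KO 3 and 5.41, 4.21 and 3.87 CPM in EC WT 1 to EC WT 3, while *Ccl2* and *Spp1* reached at most 3.85 and 1.74 CPM. Without EC KO 1 or EC KO 3 edgeR called none of the list (5 and 4 genes at an unadjusted p under 0.05). Without EC WT 1 the 1 call was *Ccr2* and without EC KO 2 it was *Ccl2*. Without EC WT 2 none of the 3 was called, and *Ptgs2* and *Thbs1* were called in their place, and without EC WT 3 *Spp1* and *Plac8* were called. DESeq2 called 3 higher and 2 lower on all libraries, the latter being *Nos2* and *Ptgs2*. *Ly6c2* gave 0.023 ± 0.36 (adjusted p = 0.969) in ECs and -0.77 ± 0.29 (adjusted p = 0.0639) in hearts. *Il1b* reached 1.43 CPM at most in *Hmox2-/-* ECs and 1.35 CPM in *Hmox2+/+* ECs (0.64 ± 0.43, adjusted p = 0.326), and *Tnf* was under the filter in both tissues, at 0.256 CPM at most in *Hmox2-/-* ECs.

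In hearts the median of the inflammatory list was 0.13, and the cyclooxygenase gene *Ptgs2* was the 1 gene of 9 called, downward (-1.27 ± 0.40, adjusted p = 0.0319), against 16.2% of all genes called lower. It was 0.414, 0.608 and 0.481 CPM in *Hmox2-/-* and 2.06, 1.21, 1.29 and 0.635 CPM in *Hmox2+/+* hearts. That call was lost without heart WT 1, heart WT 2, heart WT 3, heart KO 1 or heart KO 2, with 3 genes of the list at an unadjusted p under 0.05 in each of these fits. *Ccr2* was 1.12, 0.852 and 1.05 CPM in *Hmox2-/-* and 0.294, 1.73, 1.22 and 1.59 CPM in *Hmox2+/+* hearts, at -0.41 ± 0.37 (adjusted p = 0.42). Summed over each list, the resident genes were 6.75, 6.01 and 6.48 times the inflammatory genes in EC KO 1 to EC KO 3 and 4.25, 8.24 and 2.64 times in EC WT 1 to EC WT 3 (TPM). The *Hmox2+/+* ECs spread to both sides of the *Hmox2-/-* ECs, and they also spread for *Thbs1*, the thrombospondin gene of the inflammatory list, at 145 to 927 CPM against 198 to 299.7 CPM. In hearts this ratio overlapped, at 12.999 to 16.8 with the deletion and 9.76 to 14.02 without it. Such sums follow the highest genes of a list. In *Hmox2-/-* ECs the resident sum was 502 to 712 TPM, of which *Mrc1* gave 8.86 to 14.05 TPM and *Cd163* 7.13 to 14.1 TPM. Of the 20 inflammatory genes 11 stayed under 1 TPM in all *Hmox2+/+* ECs. The ratio therefore does not compare amounts of resident and inflammatory macrophages. The 2 lists were not tested against each other.

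**Figure D4:**
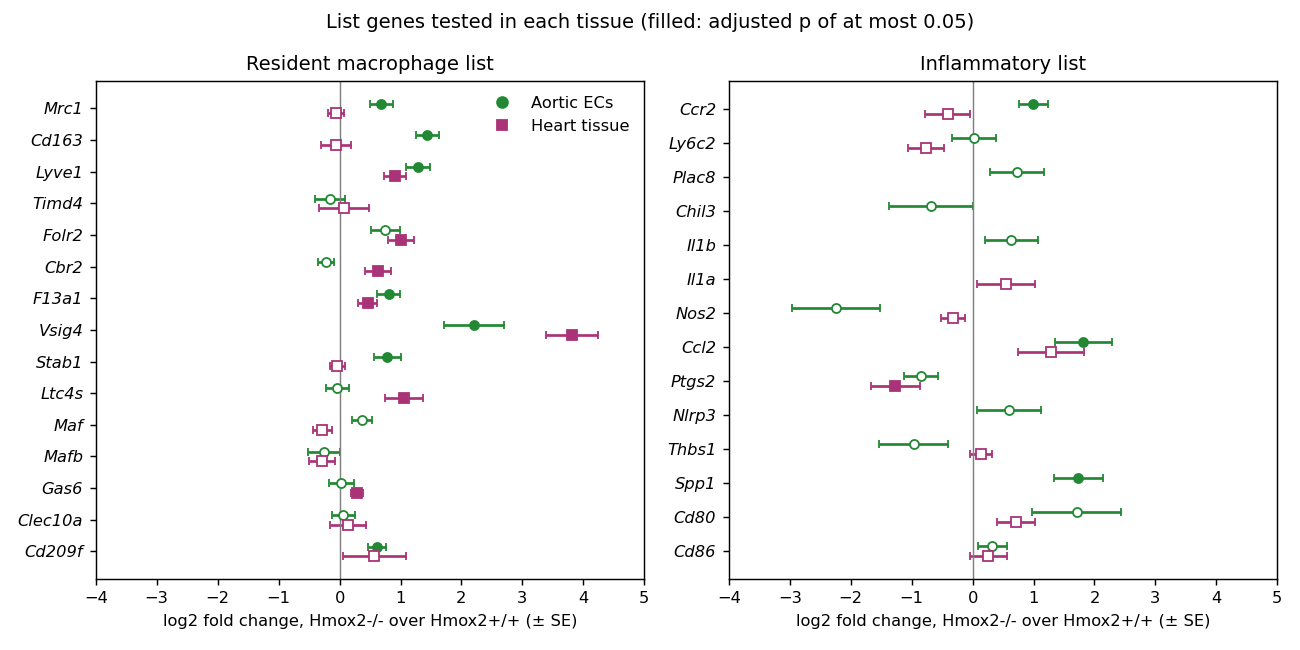
Log2 fold change, *Hmox2-/-* over *Hmox2+/+* (SE as bars), of the resident list (left) and the inflammatory list (right) in aortic ECs (circles) and heart tissue (squares), for genes that passed the filter; filled symbols have an adjusted p of at most 0.05. Of the resident genes 7 are filled to the right of 0 in each tissue, and of the inflammatory genes 3 in ECs to the right and *Ptgs2* in hearts to the left.

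A further list held 22 genes shared by macrophages and other myeloid cells. In ECs 2 were higher, the Fc receptor gene *Fcgr3* (0.77 ± 0.16, adjusted p = 0.0189) and *Ms4a7* (1.62 ± 0.29, adjusted p = 0.0133), and the median was 0.18. That count was close to the 10% of all genes called higher. In hearts 4 were higher, *Lyz1* (2.31 ± 0.68, adjusted p = 0.0238), *Fcgr3* (0.90 ± 0.24, adjusted p = 0.0142) and the genes of the signalling adaptors *Tyrobp* (0.87 ± 0.24, adjusted p = 0.0193) and *Fcer1g* (0.59 ± 0.19, adjusted p = 0.0339), and the invariant chain gene *Cd74* was lower (-0.80 ± 0.21, adjusted p = 0.0133). The heart median was 0.18, and the upward count was close to the 17.2% of all genes. *Ptprc*, the pan-leukocyte CD45 gene, was not called, at 17.9, 21.02 and 32.6 CPM in EC KO 1 to EC KO 3 and 14.4, 45.6 and 21.3 CPM in EC WT 1 to EC WT 3 (-0.19 ± 0.42, adjusted p = 0.773), with EC WT 2 the highest. In hearts it was 2.19 to 3.91 CPM in *Hmox2-/-* and 4.01 to 5.32 CPM in *Hmox2+/+* libraries (-0.61 ± 0.22, adjusted p = 0.0526). Its difference there had the opposite sign to those of *Lyz2*, *Cd68* and *C1qa*. The fractalkine receptor gene *Cx3cr1* gave -0.12 ± 0.26 (adjusted p = 0.778) in ECs and -1.27 ± 0.56 (adjusted p = 0.1) in hearts.

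For the ligands and receptors that govern macrophage numbers, edgeR called none of the 5 genes tested in ECs (none at an unadjusted p under 0.05 and none with DESeq2). *Csf1*, the main ligand of *Csf1r*, was 79.6 to 105 CPM in *Hmox2-/-* and 65.4 to 89.8 CPM in *Hmox2+/+* ECs (0.30 ± 0.16, adjusted p = 0.217), and gave -0.19 ± 0.13 (adjusted p = 0.296) in hearts. Its other ligand gene, *Il34*, gave -0.17 ± 0.38 (adjusted p = 0.774) and -0.075 ± 0.29 (adjusted p = 0.865). In hearts 1 of 5 was called, *Csf2ra*, a receptor chain for granulocyte-macrophage colony stimulating factor, which was lower (-0.96 ± 0.23, adjusted p = 0.00896). Of all genes tested there 16.2% were called lower.

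Of 13 complement genes that act with C1q, 4 were higher and 1 lower in ECs, against 10% and 8.06% of all genes. Those higher included the anaphylatoxin receptor gene *C3ar1* (1.07 ± 0.30, adjusted p = 0.0485) and the C1 protease genes *C1s1* (1.01 ± 0.22, adjusted p = 0.0215) and *C1ra* (0.75 ± 0.21, adjusted p = 0.0496), with *C1qbp* lower (-0.58 ± 0.13, adjusted p = 0.0217). *C1qbp* encodes a mitochondrial protein that binds C1q. In hearts, at a median of 0.53 against 0.75 in ECs, 10 of the 13 were higher (17.2% of all genes) and none lower. The largest were the factor D gene *Cfd* (1.79 ± 0.43, adjusted p = 0.00975), *C2* (1.20 ± 0.19, adjusted p = 0.00142), *C3* (1.16 ± 0.13, adjusted p = 0.000147) and *C3ar1* (0.77 ± 0.25, adjusted p = 0.0364). *Cfd* stood at no more than 3.97 CPM in hearts, whereas *C3* was 289, 295 and 228 CPM in *Hmox2-/-* and 122, 142, 111 and 104 CPM in *Hmox2+/+* hearts. Fibroblasts and adipocytes are also known to express several of these genes, and the summed list was 3432 to 4275 TPM in *Hmox2+/+* ECs against 155 to 197 TPM in *Hmox2+/+* hearts.

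Of 14 lysosomal genes related to *Ctss* (cathepsins, their inhibitors and membrane proteins of the lysosome), 3 were higher in ECs, *Lamp2* (1.97 ± 0.14, adjusted p = 0.000727), *Ctsh* (0.78 ± 0.15, adjusted p = 0.0168) and *Ctsc* (0.67 ± 0.15, adjusted p = 0.0262), and *Ctse* was lower (-3.99 ± 0.79, adjusted p = 0.0174). Of all genes tested 10% were called higher and 8.06% lower in ECs, and 17.2% and 16.2% in hearts. In hearts 9 of the lysosomal genes were higher and 2 lower. The largest rises were *Lamp2* (1.12 ± 0.18, adjusted p = 0.0014), *Ctsh* (1.01 ± 0.18, adjusted p = 0.00235), *Ctsk* (0.66 ± 0.22, adjusted p = 0.0358) and *Ctsd* (0.60 ± 0.11, adjusted p = 0.00239), and *Ctse* and *Cd74* were lower (-2.41 ± 0.54 (adjusted p = 0.00712) for *Ctse*). *Lamp2* was 539, 658 and 593 CPM in EC KO 1 to EC KO 3 and 149, 145 and 161 CPM in EC WT 1 to EC WT 3, a gap far wider than the spread in either group. *Lamp2* is expressed in nearly all cells and marks no cell type.

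*Cd163* takes up hemoglobin, and 11 genes of hemoglobin and heme handling could be tested in each tissue. In ECs *Cd163* was the 1 gene called by edgeR (2 higher and 1 lower at an unadjusted p under 0.05), and DESeq2 called 3 higher. Of all genes tested 10% were called higher in ECs, and 17.2% higher and 16.2% lower in hearts. In hearts, where *Cd163* was not called, 7 were higher: the haptoglobin gene *Hp* (2.94 ± 0.39, adjusted p = 0.000488), the inducible heme oxygenase gene *Hmox1* (1.998 ± 0.29, adjusted p = 0.000895), the ferritin genes *Ftl1* (1.15 ± 0.12, adjusted p = 8.08e-05) and *Fth1* (0.69 ± 0.13, adjusted p = 0.00264), and *Blvrb*, *Blvra* and *Slc48a1* at 0.67, 0.65 and 0.51. *Lrp1*, a receptor for heme bound to hemopexin, was lower (-0.48 ± 0.12, adjusted p = 0.0128). *Hmox1* was 12.5, 25.2 and 10.1 CPM in heart KO 1 to heart KO 3 and 2.50, 4.14, 4.48 and 3.99 CPM in heart WT 1 to heart WT 4, without overlap. In ECs it was 25.2, 14.3 and 69.9 and 10.6, 17.3 and 18.4 CPM and overlapped (1.24 ± 0.54, adjusted p = 0.145). The iron exporter gene *Slc40a1* gave -0.44 ± 0.52 (adjusted p = 0.571) in ECs and 0.14 ± 0.18 (adjusted p = 0.577) in hearts.

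How the markers varied among libraries of the same group was also described. Each gene's log2 CPM was expressed as a deviation from its group mean, and over the 13 libraries the Pearson correlation of a marker with the mean of the other 9 was 0.94 for *C1qc* (Spearman's rho 0.70), 0.92 for *Ctss* (0.77), 0.88 for *Lyz2* (0.84), 0.68 for *Adgre1* (0.43), 0.63 for *Mrc1* (0.51) and 0.51 for *Cd163* (0.37). The highest mean deviation of the 10 markers was in EC WT 3 (0.23), EC KO 1 (0.29), heart WT 3 (0.36) and heart KO 1 (0.34) within their groups. Among the 15938 genes that passed the filter over all libraries, the 10 others whose deviations were most like the markers' mean were *Rhog* (r = 0.95), *Pip4k2a* (0.92), *Ccl6* (0.91), *Cd86* (0.91), *Pld4* (0.90), *Lime1* (0.90), *Snap47* (0.90), *Pf4* (0.90), *Gm6969* (0.89) and *Tyrobp* (0.89). Without the 2 libraries farthest from the median these correlations were 0.82 to 0.91. They describe values that share a library, its depth and its tissue, and they were not tested.

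Transcripts of the markers were mostly of 1 form. *Lyz2*, *C1qa* and *C1qb* each had 1 listed transcript. Csf1r-201 held 76.9% to 98.2% of the TPM of *Csf1r*, Mrc1-201 88.1% to 100% of that of *Mrc1*, Adgre1-202 78.5% to 100% of that of *Adgre1* and Ctss-202 84.1% to 100% of that of *Ctss*. For *Cd163* a transcript with a retained intron, Cd163-203 (6 exons), took 22.9% to 29.2% of the TPM in *Hmox2+/+* ECs and 28.8% to 30.5% in *Hmox2-/-* ECs, with overlap. In *Hmox2+/+* hearts its share was 19.9% to 35.5%, and in *Hmox2-/-* hearts 21.8% to 39.6%. The shares of the 2 full-length coding transcripts of *Cd163* could not be told apart in the shallow library heart WT 1, where Cd163-201 was listed at 0 and Cd163-202 at 80.1%.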

How the data were processed

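RNA sequencing had been run on 13 libraries of *Hmox2-/-* and *Hmox2+/+* mice. The authors quantified transcripts with kallisto 0.44.0 and deposited, for each library, estimated counts and TPM per transcript. The study's methods name a GENCODE M32 (GRCm39) index, while the submitters' processing notes list other builds, and the annotation used here was GENCODE M39, which matched 97.17% of 118489 transcripts. The unmatched transcripts held 0.755% to 1.011% of the counts. The quantification is not stated to use strand, so reads of overlapping genes on opposite strands cannot be told apart.

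Transcript counts were added up to whole-number gene counts, genes were filtered with edgeR's filterByExpr (minimum count 10), and libraries were scaled by TMM. Differences were tested with edgeR's quasi-likelihood test, within each tissue for genotype and over all 13 libraries for the tissue by genotype term and the tissue difference. P-values were adjusted over all genes tested by the Benjamini-Hochberg method and called at 0.05. The DEG criterion also required a log2 change of 1 or more in either direction. CPM are TMM-scaled within a tissue, and TPM were summed per gene. Alternatives were DESeq2, other normalizations and filters, a replicate block, an offset for gene length and GC content, and leaving out each library. The fits were tested on simulated data. Tools were R 4.3.3, edgeR 4.0.16, DESeq2 1.42.0, limma 3.58.1, mgcv 1.9.3, pandas 2.3.3 and matplotlib 3.10.9.

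The markers and lists were chosen with earlier results of these data known. Beside the markers, the text names from each list the called genes, up to 4 a direction and tissue by size, a fixed set of landmark genes, and the 10 genes most like the markers. Other genes named were chosen after their values were seen. A called complement gene is counted but not reported here by name. Depth was 26067147 to 31619776 counts in 12 libraries and 7268626 in heart WT 1, which limits low genes there.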

Additional observations from a re-analysis of the deposited data

Results flagged for a closer look

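For 7 genes of the marker, resident and inflammatory lists the genotype difference was not the same in the 2 tissues by the tissue by genotype term of the edgeR fit. The term was called for 4595 of all 15938 genes tested, so such calls are not particular to these lists. The log2 fold change in hearts minus that in ECs was -1.45 (adjusted p = 0.00842) for *Cd163*, -0.71 (adjusted p = 0.0332) for *Mrc1*, -0.78 (adjusted p = 0.031) for *Stab1* and -1.36 (adjusted p = 0.0425) for *Ccr2*. It was 0.88 (adjusted p = 0.0247) for *Cbr2*, 1.15 (adjusted p = 0.0228) for *Ltc4s* and 1.93 (adjusted p = 0.0361) for *Nos2*. *Ccr2* was higher in *Hmox2-/-* ECs, at 0.998, and gave -0.41 in hearts.

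In the *Hmox2+/+* hearts 1 library lay far from the other 3 for 3 quantities. The ratio of *Mrc1* to *Adgre1* was 2.12 in heart WT 2, the ratio of *C1qb* to *C1qa* was 0.877 in heart WT 4, and *Cd86*, which encodes a costimulatory ligand, was 2.09 CPM in heart WT 3. Chance gives such a gap in about 1 of 20 groups.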

How the results depend on the processing

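Of the values of single markers under the alternatives, 726 kept their direction and side of the threshold, 48 lost a call, 23 gained 1 and 23 changed sign. The causes were not tested. In ECs 5 markers were called, and 9 with DESeq2, 8 with no filter, 8 with the offset for gene length and GC content (*Mrc1* lost, *Csf1r* and the C1q genes gained), 2 by the DEG criterion, 1 with EC KO 1 alone and 2 to 9 without 1 library. The resident list gave 7, against 3 by the DEG criterion, 1 with EC KO 1 alone and 2 to 7 without 1 library. The inflammatory list gave 3, against 5 with DESeq2, 6 with all 13 libraries in 1 fit, 0 with EC KO 1 alone (1 at an unadjusted p under 0.05) and 0 to 2 without 1 library. In hearts 5 markers were called, 1 by the DEG criterion and 4 to 6 without 1 library. The resident list gave 7, against 4 with length-scaled TPM, 3 by the DEG criterion and 3 to 6 without 1 library. The inflammatory list gave 1, against 0 with length-scaled TPM (2 at an unadjusted p under 0.05), 2 with the offset and 0 to 1 without 1 library. The tissue by genotype term was called for 2 markers, 1 with the offset, 1 by the DEG criterion and 1 to 2 without 1 library. With the replicate number as a block the heart counts were 1 marker and 3 resident genes, and the EC counts 4 and 6. Whether the numbers pair the samples cannot be settled with 3 or 4 libraries a group. Deviations of same-numbered libraries correlated at 0.166, 0.033 and 0.076 in ECs and -0.022, 0.039 and 0.021 in hearts. Those of other pairs correlated at -0.207 to 0.142 in ECs and -0.078 to 0.057 in hearts, and not every sample correlated best with its own number.

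With the offset, log2 values changed sign for *Mrc1* (0.38) and *Cd163* (0.12) in hearts, for *Cd68* (-0.23), *C1qa* (-0.35), *C1qb* (-0.38) and *C1qc* (-0.36) in the tissue by genotype term, and for *Mrc1* (-0.26) and *Cd163* (-0.036) between *Hmox2+/+* tissues. Upper-quartile normalization gave -0.086 and -0.054 for the last pair, and moved the median of all genes by -0.10 in the tissue by genotype term. Without 1 library the range was -0.18 to 0.016 for *Mrc1* and -0.23 to 0.15 for *Cd163* in hearts, and -0.10 to 0.16 and -0.15 to 0.23 between *Hmox2+/+* tissues. For the tissue by genotype term it was -0.17 to 0.37 for *Lyz2*, -0.001 to 0.58 for *C1qa*, -0.17 to 0.45 for *C1qb*, -0.048 to 0.43 for *C1qc* and -0.25 to 0.053 for *Csf1r*. Heart WT 1 had fewer counts than the other libraries, and 3 or 4 libraries a group limit what can be called.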

Other observations

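Markers of other blood cells were counted in both tissues, where 10% of all genes were called higher and 8.06% lower in *Hmox2-/-* ECs, and 17.2% and 16.2% in hearts. These lists are too short for a count of 1 to be told apart from those shares. Of the dendritic cell markers 1 of 9 was higher in *Hmox2-/-* ECs, the lectin gene *Cd209a* (1.84 ± 0.30, adjusted p = 0.00991), and 1 of 7 was lower in *Hmox2-/-* hearts, the MHC class II gene *H2-Aa* (-0.92 ± 0.22, adjusted p = 0.00984). Of the platelet markers 2 of 5 were higher in ECs, *Pf4* (1.30 ± 0.27, adjusted p = 0.0202) and *Gp1ba* (1.09 ± 0.28, adjusted p = 0.0348), and 2 of 4 in hearts, *Pf4* (1.18 ± 0.23, adjusted p = 0.00407) and *Ppbp* (2.82 ± 0.60, adjusted p = 0.00565). *Pf4* was also among the 10 genes whose deviations were most like the mean of the macrophage markers (r = 0.90). The cells behind its calls were not tested. The mast cell tryptase gene *Tpsb2* was higher in both tissues, at 5.09 ± 0.67 (adjusted p = 0.005) and 3.35 ± 0.75 (adjusted p = 0.00732). It was 1 of 7 mast cell markers tested in ECs, where *Kit* was lower (-0.93 ± 0.24, adjusted p = 0.0388), and 1 of 6 in hearts, where DESeq2 called none.

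Of the neutrophil markers edgeR called none of 10 in ECs (1 at an unadjusted p under 0.05, 1 with DESeq2) and none of 3 in hearts (none at an unadjusted p under 0.05 and none with DESeq2). *S100a8* was 3.43, 1.66 and 9.38 CPM in EC KO 1 to EC KO 3 and 3.07, 11.4 and 19.9 CPM in EC WT 1 to EC WT 3. Of the B cell markers none of 9 was called in ECs (3 at an unadjusted p under 0.05, 1 with DESeq2), and *Blk* was the 1 of 4 called in hearts, downward (-1.08 ± 0.21, adjusted p = 0.00401). The 1 T and NK cell marker tested in hearts was not called (none at an unadjusted p under 0.05 and none with DESeq2). *Cd3e* was 1.65, 12.4 and 4.55 CPM in EC WT 1 to EC WT 3 and 2.16, 3.75 and 6.08 CPM in EC KO 1 to EC KO 3, and EC WT 2 was the high library. Of the cell cycle genes none of 8 was called in ECs (none at an unadjusted p under 0.05 and none with DESeq2), and *Mki67* was the 1 of 7 called in hearts, downward (-1.47 ± 0.31, adjusted p = 0.00519).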
